A study of Homo sapiens with 6 samples.

Results

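S-adenosylmethionine and polyamine metabolism was followed through 10 genes: MAT2A, MAT2B, AHCY, ODC1, AMD1, SRM, SMS, SAT1, OAZ1 and AZIN1. The genes were chosen by symbol, and the pathway came into view on account of the fall of MAT2B after knock-down, so their changes after knock-down are a description and are given without p-values. All 10 were among the 59074 genes listed and among the 14294 that averaged 1 CPM or more (reads scaled to library size), with 584 to 22212 reads behind each value. The study transfected 3 established lines of human glioblastoma, LN-229 (LNT229 in the sample titles), T98G and U251, with non-target siPOOLs (siControl) or with siPOOLs against the long non-coding RNA HOTAIRM1 (siHOTAIRM1) and sequenced their RNA 72 h later. A siPOOL is a mixture of many siRNAs against one transcript. There was 1 library per line and condition, which makes the 3 cell lines the replicates: no spread between cultures of a line is known, and the residual of each fit is the unequal response of the lines.

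S-adenosylmethionine is the methyl donor of most cellular methylation. It is made from methionine and ATP by methionine adenosyltransferase, whose catalytic subunit is encoded by MAT2A and whose regulatory subunit by MAT2B, and AHCY hydrolyses the S-adenosylhomocysteine that methylation leaves behind. Once decarboxylated by AMD1, S-adenosylmethionine supplies the aminopropyl groups with which SRM turns putrescine, the product of ODC1, into spermidine and SMS turns spermidine into spermine. SAT1 acetylates both polyamines for export or oxidation, OAZ1 is the antizyme that takes ornithine decarboxylase to the proteasome, and AZIN1 binds antizyme in its place. Polyamines are needed by proliferating cells, and their synthesis is known to be raised in many tumours, gliomas among them.

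HOTAIRM1 itself was at 1.99 CPM in siControl and 0.952 CPM in siHOTAIRM1 cells of LN-229, at 3.49 and 2.15 CPM in T98G, and at 1.27 and 0.623 CPM in U251. Depth ranged from 52.3 to 104 M reads. On the log2(CPM + 1) scale, LN-229 had a median change over all genes tested of 0.01, T98G of -0.19 and U251 of -0.03, and 79.3% of genes were lower in siHOTAIRM1 cells of T98G. Of the markers of glioma cells, VIM and CD44 were at 254 CPM or more in all 6 libraries, GFAP was above 1 CPM in U251 but at 0.317 CPM or less in the other lines, and in T98G SOX2 was at 0.0146 CPM or less and NES at 0.956 CPM or less. OLIG2 was at 1.69 CPM or less in every library. PTPRC, PECAM1 and EPCAM, which mark leukocytes, endothelium and epithelium, did not exceed 0.523 CPM.

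The promoter windows of MAT2B and SMS, the genes that fell in every cell line, are shown with that of ODC1, the gene that differed most between cell lines. They are RefSeq windows of GRCh38.p14 from 250 bases before to 50 bases after an annotated start, read in the direction of the gene, with capitals for the CCAAT box (CCAAT or ATTGG), the GC box (GGGCGG or CCGCCC) and the E-box (CACGTG), the word that MYC and MAX bind.
MAT2B, chr5:163505369-163505668, plus strand: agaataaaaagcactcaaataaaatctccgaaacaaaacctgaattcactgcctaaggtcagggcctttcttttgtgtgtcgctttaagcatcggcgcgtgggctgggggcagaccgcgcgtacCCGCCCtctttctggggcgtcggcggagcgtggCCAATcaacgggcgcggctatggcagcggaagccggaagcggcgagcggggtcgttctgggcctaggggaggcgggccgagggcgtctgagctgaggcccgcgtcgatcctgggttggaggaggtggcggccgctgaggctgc
SMS, chrX:21940459-21940758, plus strand: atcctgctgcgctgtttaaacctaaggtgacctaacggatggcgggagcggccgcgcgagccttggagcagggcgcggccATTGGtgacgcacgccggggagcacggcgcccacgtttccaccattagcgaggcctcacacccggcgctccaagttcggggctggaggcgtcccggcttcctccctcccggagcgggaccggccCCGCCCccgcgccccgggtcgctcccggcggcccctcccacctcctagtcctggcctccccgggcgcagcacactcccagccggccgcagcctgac
ODC1, chr2:10447963-10448262, minus strand: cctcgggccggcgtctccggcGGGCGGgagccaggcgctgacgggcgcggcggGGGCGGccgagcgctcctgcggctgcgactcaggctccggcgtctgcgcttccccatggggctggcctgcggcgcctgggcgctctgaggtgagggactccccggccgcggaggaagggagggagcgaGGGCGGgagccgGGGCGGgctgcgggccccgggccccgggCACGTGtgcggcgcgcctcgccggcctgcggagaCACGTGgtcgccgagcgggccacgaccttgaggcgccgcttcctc

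The MAT2B window belongs to the start of its canonical transcript, MAT2B-202. A second RefSeq window of MAT2B, at a start 2555 bases upstream, held none of these words and had a GC content of 35.0%, against 63.3% for the window shown. SMS, at 73.3% GC, held 1 CCAAT box and 1 GC box, as did MAT2B. The ODC1 window lies at an alternative start 315 bases downstream of the canonical one and held 2 E-boxes, while the window at the canonical start (chr2:10448278-10448577) held 0 E-boxes and 6 GC boxes. SRM held 1 E-box, and no E-box was found in any window of the other 7 genes matched in the table. AZIN1 is named only. Among 34796 RefSeq windows of the same length, 7.20% held an E-box, 34.6% a CCAAT box and 44.9% a GC box, so the boxes shared by MAT2B and SMS are common ones. Of the 9 genes matched, 7 held a CCAAT box and 8 a GC box in at least 1 window. These counts are per gene over as many as 3 windows, while the shares above are per window, so the 2 cannot be compared. AMD1 counts for the CCAAT box only through a window at a start 60168 bases from its canonical one.

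MAT2B and SMS fell after HOTAIRM1 knock-down in each of the 3 cell lines. MAT2B dropped to between 29.9 and 56.0% of control and SMS to between 42.8 and 58.9%, whereas the other 8 genes stayed between 72.0 and 142% of control and did not pass the threshold. In the fit across all 14294 genes (limma with cell line as block, Benjamini-Hochberg adjusted p under 0.05), 2.0% of genes passed the threshold, 1.59% lower and 0.413% higher. Of the 10 genes, 2 passed it, both lower, and 0 passed it higher. These are the contrast and the libraries through which the pathway was picked, so nothing is read from that count. Here and below, the side of the threshold on which a gene of the 10 lies after knock-down describes it and is no test.

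MAT2B (ENSG00000038274, chromosome 5, 163503114 to 163519558 of hg38, plus strand) encodes the regulatory subunit of methionine adenosyltransferase. In LN-229, its level was 20.6 CPM in siControl and 11.5 CPM in siHOTAIRM1 cells, or 56.0% of control (95% interval of the counting error 52.1 to 60.3%). In T98G it went from 42.9 to 18.3 CPM, 42.8% of control (40.1 to 45.7%), and in U251 from 50.2 to 15.0 CPM, 29.9% of control (28.1 to 31.9%). All 3 siHOTAIRM1 libraries lay below all 3 siControl libraries. Control levels spanned 2.44-fold between the lines and U251, the line with the highest control level, had the largest drop. The changes in log2(CPM + 1) were -0.78, -1.18 and -1.68, with a mean of -1.21 ± 0.15 (SE, n = 3 cell lines), the 4th lowest of all genes tested. Each SE here and below is that of the limma fit, with variance borrowed across genes. It is not the spread of the 3 changes of a gene.

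SMS (ENSG00000102172, chromosome X, 21940709 to 21994837, plus strand) encodes spermine synthase. It went from 59.8 to 35.2 CPM in LN-229, which is 58.9% of control (95% interval of the counting error 56.4 to 61.4%). In T98G the level was 51.1 CPM in siControl and 21.9 CPM in siHOTAIRM1 cells, 42.8% of control (40.3 to 45.4%), and in U251 it was 69.7 and 36.6 CPM, 52.4% of control (50.1 to 54.9%). Here too the conditions did not overlap, and control levels of the lines were closer together than those of MAT2B, with a 1.36-fold span. The changes in log2(CPM + 1) were -0.75, -1.19 and -0.91, with a mean of -0.95 ± 0.14 (SE, n = 3), the 13th lowest.

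**Figure D1:**
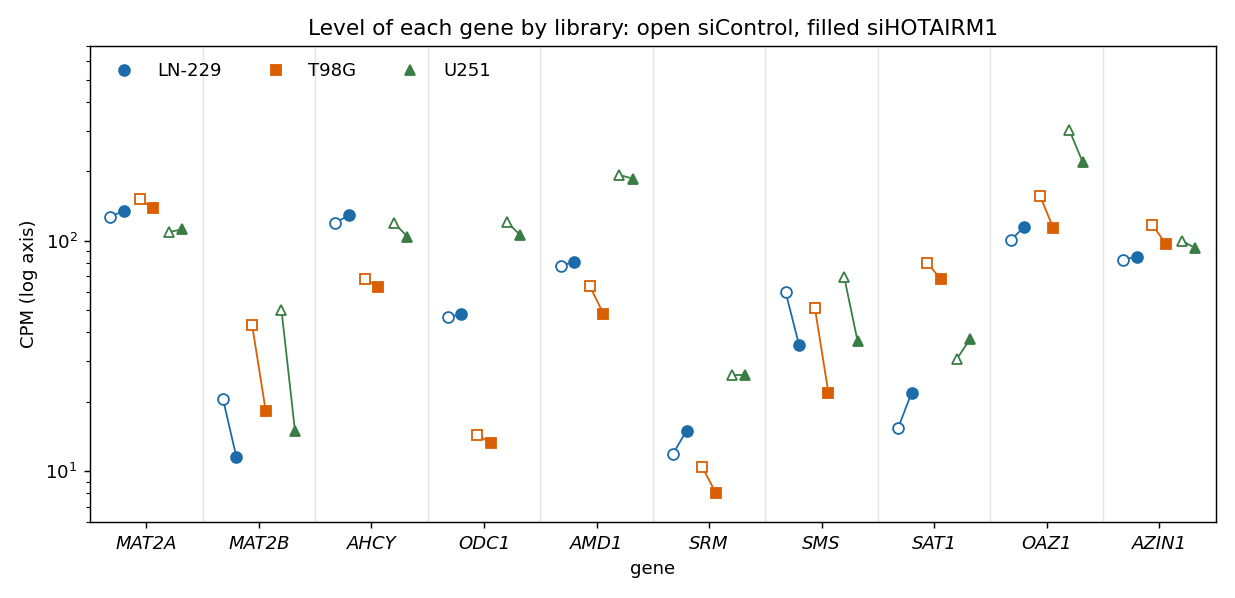
Level of each gene in the 6 libraries in CPM on a log axis, with siControl as open and siHOTAIRM1 as filled symbols and a line joining the libraries of a cell line. MAT2B and SMS run downward in all 3 lines (MAT2B from 20.6, 42.9 and 50.2 CPM to 11.5, 18.3 and 15.0 CPM), and ODC1 and SAT1 spread most between lines.

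No overlap between the conditions, with siHOTAIRM1 lower, was seen for 2 of the 10 genes (MAT2B and SMS) against 1.89% of all genes tested. A fall of at least 0.5 (log2) in every line was likewise seen for 2 of the 10, against 0.301% of genes. Both counts use the libraries through which the pathway was picked, and nothing is read from them either. T98G had the largest general decrease, and relative to the median change of each line MAT2B changed by -0.80, -0.99 and -1.65 and SMS by -0.76, -1.0 and -0.89 in LN-229, T98G and U251. With each library centred on its median, the mean change was -1.14 for MAT2B and -0.87 for SMS, and with each rescaled to the sum of its listed genes -1.09 and -0.81. Neither gene was past the threshold without T98G, without the filter on low values, without the cell line in the model or with a paired t-statistic per gene, settings under which 0 genes passed. Leaving out LN-229 gave a mean of -1.43 for MAT2B and -1.05 for SMS, leaving out T98G -1.23 and -0.83, and leaving out U251 -0.98 and -0.97.

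Their partner genes stayed nearer to control and did not pass the threshold. MAT2A, the catalytic subunit (ENSG00000168906, chromosome 2, 85539168 to 85545281, plus strand), was at 127 and 135 CPM in siControl and siHOTAIRM1 cells of LN-229, at 151 and 138 CPM in T98G and at 109 and 112 CPM in U251. SRM, spermidine synthase (ENSG00000116649, chromosome 1, 11054584 to 11060020, minus strand), was at 11.9 and 15.0 CPM in LN-229, 10.4 and 8.03 CPM in T98G, and 26.0 and 26.0 CPM in U251. The mean change was 0.00 ± 0.15 for MAT2A and -0.01 ± 0.15 for SRM (SE, n = 3), although rescaling moved that of MAT2A to 0.14. Per kilobase of canonical transcript, the ratio of MAT2B to MAT2A transcripts went from 0.221 to 0.117 in LN-229, from 0.387 to 0.181 in T98G and from 0.627 to 0.183 in U251. The lines thus differed in this ratio under siControl, and T98G and U251 came to nearly the same value under siHOTAIRM1. The ratio of SMS to SRM went from 3.73 to 1.74, from 3.64 to 2.01 and from 1.99 to 1.04 in the same order. These ratios use 1 library each and were not tested.

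**Figure D2:**
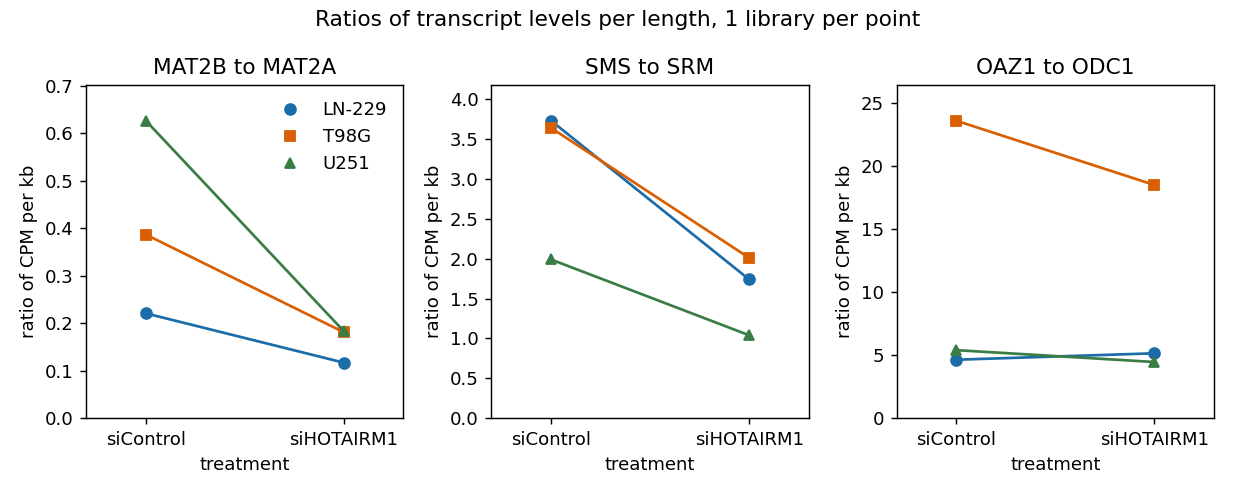
Ratios of CPM per kilobase of transcript under siControl and siHOTAIRM1, 1 line per cell line, with each vertical axis starting at 0. MAT2B to MAT2A falls in all 3 lines to 0.117, 0.181 and 0.183, SMS to SRM falls to 1.74, 2.01 and 1.04, and OAZ1 to ODC1 is set apart by T98G (23.6 under siControl).

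AHCY and AMD1, which act on S-adenosylmethionine or on what methylation leaves of it, did not pass the threshold. AHCY (ENSG00000101444, chromosome 20, 34280268 to 34311802, minus strand) was at 119.6 and 129 CPM in LN-229, 68.3 and 63.1 CPM in T98G, and 119.6 and 104 CPM in U251, in the order siControl, siHOTAIRM1. AMD1 (ENSG00000123505, chromosome 6, 110874770 to 110898879, plus strand) was at 77.6 and 81.1 CPM, 63.6 and 48.3 CPM, and 193 and 186 CPM in LN-229, T98G and U251. Mean changes were -0.07 ± 0.15 for AHCY and -0.13 ± 0.15 for AMD1 (SE, n = 3). The lowest single value of AMD1 was 75.9% of control in T98G, a change of -0.39, which was -0.20 relative to the median of that line.

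ODC1, the first enzyme of polyamine synthesis (ENSG00000115758, chromosome 2, 10439968 to 10448327, minus strand), did not pass the threshold. It went from 46.6 to 48.0 CPM in LN-229, from 14.4 to 13.2 CPM in T98G and from 121 to 106 CPM in U251, or 103, 91.8 and 87.7% of control. The conditions overlapped fully, and the mean change was -0.09 ± 0.14 (SE, n = 3). Its inhibitor OAZ1 (ENSG00000104904, chromosome 19, 2269509 to 2273490, plus strand) went from 100.3 to 115 CPM in LN-229, from 157 to 113 CPM in T98G and from 303 to 219 CPM in U251, with a mean change of -0.25 ± 0.17. The inhibitor of that antizyme, AZIN1 (ENSG00000155096, chromosome 8, 102826111 to 102893864, minus strand), went from 82.8 to 85.1 CPM, from 117 to 96.6 CPM and from 100.1 to 92.8 CPM, with a mean change of -0.11 ± 0.15. OAZ1 was at 72.0 and 72.3% of control in T98G and U251 and at 114% in LN-229.

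SAT1, the acetyltransferase of polyamine catabolism (ENSG00000130066, chromosome X, 23783173 to 23786210, plus strand), had the highest mean change of the 10 genes, 0.18 ± 0.15 (SE, n = 3), and did not pass the threshold. It was at 15.4 CPM in siControl and 21.9 CPM in siHOTAIRM1 cells of LN-229 (142% of control, 95% interval of the counting error 133 to 152%). In T98G it was at 80.0 and 67.9 CPM (84.8%, 81.6 to 88.1%), and in U251 at 30.6 and 37.5 CPM (122%, 116 to 129.9%). LN-229 and U251 were thus higher and T98G lower. The ratio of SMS to SAT1 transcripts per kilobase went from 2.39 to 0.991 in LN-229, from 0.393 to 0.198 in T98G and from 1.40 to 0.601 in U251.

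**Figure D3:**
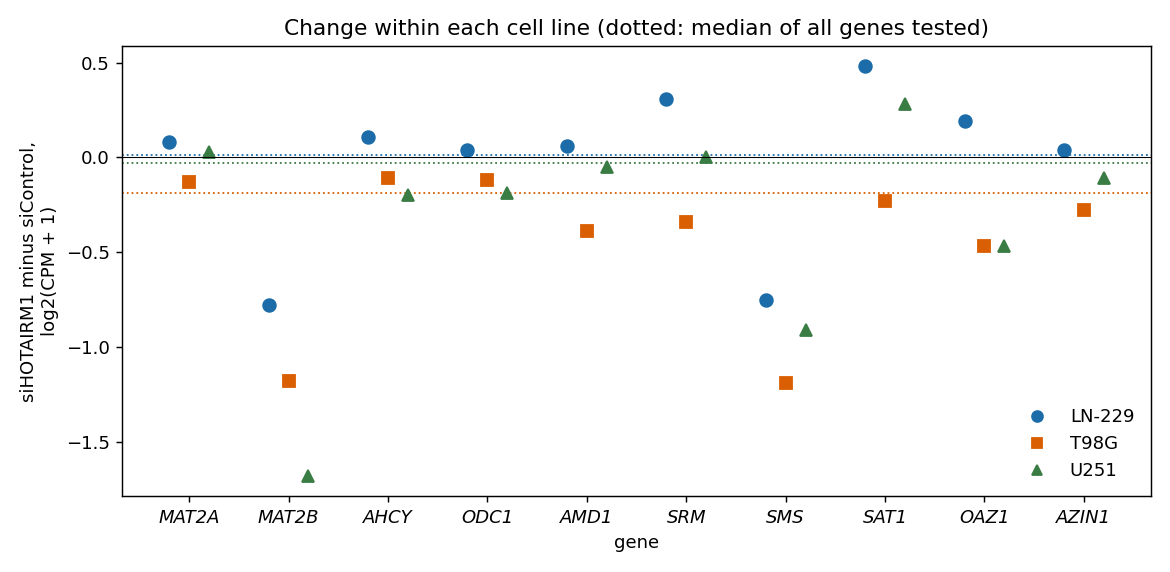
Change of log2(CPM + 1), siHOTAIRM1 minus siControl, of each gene in each cell line, with the median change of all genes of the line dotted. Apart from MAT2B and SMS, changes run from -0.47 (OAZ1 in T98G and U251) to 0.48 (SAT1 in LN-229), and for each of these 8 genes T98G or U251 is lowest.

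The levels of the genes other than MAT2B and SMS differed between the cell lines by more than they changed after knock-down in any line. Per kilobase of canonical transcript in siControl cells, the mean of the 3 lines was highest for OAZ1 (163 CPM per kb), followed by AHCY (47.7), MAT2A (45.9), SAT1 (40.0), SMS (35.4), AMD1 (32.5), ODC1 (24.5), AZIN1 (23.8), MAT2B (18.4) and SRM (12.8). OAZ1 at its lowest (87.3 CPM per kb in LN-229) was above every other gene at its highest (SAT1, 76.3 CPM per kb in T98G). From AHCY downward each gene overlapped its neighbour in this order over the 3 lines, so that part of the order is within their spread. The control levels of a gene spanned from 1.36-fold (SMS) to 8.43-fold (ODC1) between lines.

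Differences between the cell lines were not used to pick the genes and were tested in the same limma fit, over the 2 libraries of each line with condition as a term. Differences past the threshold were common among all genes. Between T98G and LN-229 54.9% of genes passed it, between U251 and LN-229 60.6% and between U251 and T98G 64.2%. Of the 10 genes, 7, 6 and 7 passed it in these comparisons, which is near those shares. Each line is a single culture per condition, so these differences hold for the cultures sequenced.

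Of the synthetic enzymes of the polyamine branch, ODC1, AMD1 and SRM were highest in U251. ODC1 was higher in U251 than in T98G by 2.95 ± 0.17 (SE, 2 libraries per line, 1 of each condition) on the log2(CPM + 1) scale, 7.75-fold, with a limma adjusted p of 6.13e-17. The size of that p rests on variance borrowed across genes, and it was 1.27e-07 after rescaling and 0.000559 with no filter. ODC1 was also higher in U251 than in LN-229 by 1.24 ± 0.17 (adjusted p = 1.47e-07 from limma) and lower in T98G than in LN-229 (-1.71 ± 0.17, adjusted p = 1.34e-10 from limma). Its order was thus U251, LN-229, T98G with every step past the threshold. The same order held for AMD1, with U251 above T98G by 1.75 ± 0.19 (3.37-fold, limma adjusted p = 4.36e-10) and above LN-229 by 1.24 ± 0.19 (5.89e-07). SRM was higher in U251 than in T98G by 1.41 ± 0.18 (2.66-fold, limma adjusted p = 2.69e-08) and than in LN-229 by 0.91 ± 0.18 (5.17e-05). Listed genes made up 67.2 and 55.9% of the full CPM scale in the U251 libraries and 42.9 to 50.2% in the others. After rescaling, U251 minus LN-229 was 0.90 for ODC1, 0.89 for AMD1 and 0.59 for SRM. U251 minus T98G was then 2.60, 1.36 and 1.07, and all of these stayed past the threshold. The smaller steps from LN-229 down to T98G, -0.51 for AMD1 (adjusted p = 0.0209) and -0.50 for SRM (0.0199, both limma), did not pass without either siHOTAIRM1 library of these lines. Adjusted p was then 0.254 and 0.245 for AMD1 and 0.430 and 0.407 for SRM, without the LN-229 and the T98G library respectively. SMS, the last enzyme of the branch, did not differ between U251 and LN-229 at the threshold (0.13, 95% interval -0.22 to 0.49), and rescaling turned this difference to -0.22. SMS was lower in T98G than in LN-229 (-0.44 ± 0.18, limma adjusted p = 0.0328) and than in U251 (U251 minus T98G 0.58 ± 0.18, 0.00480), and rescaling ended the latter (0.19, adjusted p = 0.296). Without a siHOTAIRM1 library of the lines compared, neither SMS difference passed (limma adjusted p 0.0594 to 0.337).

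OAZ1 was also highest in U251, above LN-229 by 1.26 ± 0.20 (2.39-fold, limma adjusted p = 2.18e-06) and above T98G by 0.95 ± 0.20 (1.93-fold, 0.000138), while T98G and LN-229 differed by 0.31 (95% interval -0.10 to 0.73). Rescaling brought the lead of U251 in OAZ1 down to 0.90 over LN-229 and 0.55 over T98G (limma adjusted p = 0.00107 and 0.0168). AZIN1 differed between no lines at the threshold, with intervals of -0.04 to 0.71 for T98G minus LN-229, -0.18 to 0.57 for U251 minus LN-229 and -0.52 to 0.23 for U251 minus T98G. After median centring, AZIN1 was higher in T98G than in LN-229 (0.42, limma adjusted p = 0.0127) and lower in U251 than in T98G (-0.35, 0.0251). The ratio of OAZ1 to ODC1 transcripts per kilobase under siControl was 4.64 in LN-229, 23.6 in T98G and 5.40 for U251, so T98G, the line with the least ODC1, had the most antizyme transcript per ODC1 transcript.

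SAT1 ran in another order. It was highest in T98G, above LN-229 by 1.95 ± 0.18 (3.85-fold, limma adjusted p = 1.91e-11), and lower in U251 than in T98G (-1.10 ± 0.18, adjusted p = 3.13e-06 from limma). U251 was in turn above LN-229 by 0.85 ± 0.18 (limma adjusted p = 0.000154), a step that had an adjusted p of 0.0518 without the siControl library of LN-229. Rescaling gave 0.51 for that step and -1.51 for U251 minus T98G. T98G thus combined the lowest ODC1 with the highest SAT1 of the 3 lines.

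In the S-adenosylmethionine branch, MAT2A did not differ between lines at the threshold (limma adjusted p 0.0782 to 0.547), but U251 fell below T98G after median centring (-0.59, adjusted p = 0.00220 from limma) and below LN-229 (-0.37, 0.0250). MAT2B was lower in LN-229 than in T98G (T98G minus LN-229 0.83 ± 0.19, limma adjusted p = 0.000325) and than in U251 (U251 minus LN-229 0.80 ± 0.19, 0.000383), with U251 and T98G alike in mean (-0.02, 95% interval -0.40 to 0.36). These means combine siControl and siHOTAIRM1. Leaving out the siControl library of LN-229 gave an adjusted p of 0.111 and 0.127 from limma, leaving out either T98G library gave 0.0517 and 0.0637 for T98G minus LN-229, and leaving out the siControl library of U251 gave 0.116 for U251 minus LN-229. Without the siHOTAIRM1 library of U251, U251 minus T98G was 0.32. After rescaling, the MAT2B differences were 0.89 for T98G minus LN-229, 0.47 for U251 minus LN-229 and -0.42 for U251 minus T98G. The last of these was not past the threshold (limma adjusted p = 0.0555). AHCY was lower in T98G than in LN-229 (-0.91 ± 0.18, limma adjusted p = 8.24e-05) and than in U251 (U251 minus T98G 0.75 ± 0.18, 0.000623), the latter with an adjusted p of 0.0559 after rescaling.

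**Figure D4:**
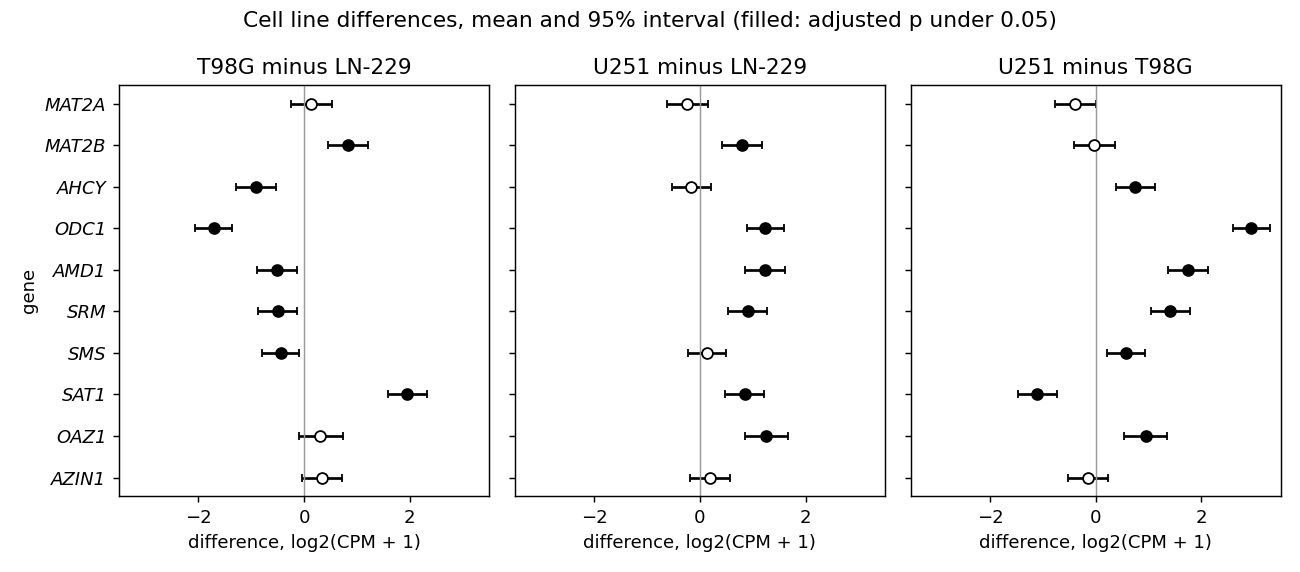
Differences between cell lines in mean log2(CPM + 1) over the 2 libraries of each line, with 95% intervals from limma and filled points for an adjusted p under 0.05. ODC1 stands out at 2.95 for U251 minus T98G, SAT1 lies opposite to it at -1.10, and MAT2A and AZIN1 have open points in all 3 panels.

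The genes around the pathway were counted from 10 further lists of 80 genes, of which 79 were listed and 65 passed the filter on low values. They cover the methionine cycle, methylthioadenosine salvage, transsulfuration, folate metabolism, polyamine catabolism, ornithine supply, transport, hypusination, regulators of the 10 genes and methyltransferases. Of the 65, 2 were lower past the threshold (3.08%, where 1.59% of all genes were lower) and 0 were higher. The lists were chosen with earlier results of these data known, so these counts and the p-values of their genes are no independent test. LN-229 had a median change of the 65 genes of 0.02, T98G of -0.24 and U251 of -0.09, beside 0.01, -0.19 and -0.03 for all genes. All 3 siHOTAIRM1 libraries lay below all 3 siControl libraries for 2 of the 65 (3.08%, beside 1.89% of all genes), ADI1 and GAMT. GAMT, named for this after its values were seen, did not pass the threshold (-0.24, limma adjusted p = 0.372).

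ADI1, a dioxygenase of the salvage route that returns the methylthioadenosine left by SRM and SMS to methionine, went from 25.3 to 17.2 CPM in LN-229, from 26.4 to 11.8 CPM in T98G and from 56.6 to 24.2 CPM in U251. Its change was -0.94 ± 0.15 (SE, n = 3 cell lines, limma adjusted p = 0.000187), and the other 4 salvage genes (MTAP, MRI1, APIP and ENOPH1) did not pass the threshold. MTHFD2, a mitochondrial enzyme of folate metabolism, went from 60.7 to 37.3 CPM, from 50.8 to 25.4 CPM and from 83.3 to 51.1 CPM in LN-229, T98G and U251. Its change was -0.79 ± 0.14 (limma adjusted p = 0.00154), which lost the threshold after rescaling (-0.65, adjusted p = 0.101 from limma). Without T98G the adjusted p from limma was 0.381 for ADI1 and 0.367 for MTHFD2.

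Paralogues and counterparts of the 10 genes did not pass the threshold. AHCYL1, a homologue of AHCY that acts on the inositol trisphosphate receptor, was nearest to it, with 61.1 and 46.5 CPM in LN-229, 104 and 75.2 CPM in T98G and 92.1 and 63.0 CPM in U251 (change -0.47 ± 0.15, limma adjusted p = 0.0813). AHCYL2 changed by 0.03 ± 0.14, the antizyme OAZ2 by -0.13 ± 0.14, the antizyme inhibitor AZIN2 by -0.06 ± 0.13 and the spermine oxidase SMOX by -0.07 ± 0.15, with limma adjusted p from 0.659 to 0.934. SMOX followed the direction of SAT1 in LN-229 (5.51 to 6.81 CPM) and T98G (17.0 to 12.0 CPM) and was at 13 CPM in both U251 libraries. MAT1A, the methionine adenosyltransferase of liver, reached at most 0.250 CPM, and the polyamine oxidase PAOX was between 0.0578 and 0.517 CPM, so both were below the filter.

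Among the 5 genes whose 6 values followed those of MAT2B most closely, by Euclidean distance of centred log2(CPM + 1), were CEND1 (distance 0.586), SLC30A5 (0.732), TXNP6 (0.741) and TXN (0.748). CEND1 was at only 0.125 to 3.43 CPM, where this scale compresses changes, so its small distance depends in part on the scale. SLC30A5, which encodes a zinc transporter of the secretory pathway, went from 34.8 to 23.1 CPM in LN-229, from 54.4 to 31.3 CPM in T98G and from 59.5 to 32.5 CPM in U251. TXNP6 is a pseudogene of TXN, the gene of thioredoxin, and reads of the pair may be shared, so they count as one pattern. SMS came in place 727 (distance 1.38), with its lowest siControl level in T98G, where that of MAT2B was lowest in LN-229.

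On chromosome 5, the nearest protein-coding gene before MAT2B is HMMR, which encodes a hyaluronan receptor active in mitosis and ends 11173 bases upstream. HMMR was at 23.7 and 22.0 CPM in LN-229, 56.4 and 35.7 CPM in T98G and 63.9 and 36.3 CPM in U251, changes of -0.10, -0.64 and -0.80. It was thus lower in T98G and U251, as MAT2B was, and nearly level in LN-229, where MAT2B was at 56.0% of control. TENM2, the next gene after MAT2B, starts 3459471 bases away and changed by -0.11, 0.09 and -0.20. The neighbours of SMS were looked up after its values were seen. PHEX, which starts 37488 bases after SMS, changed by -0.57, -0.99 and -0.39 in LN-229, T98G and U251 at 0.701 to 5.97 CPM, and YY2, which ends 81969 bases before it, by -0.01, 0.22 and 0.38. Pseudogenes of AHCY reached at most 0.489% of the level of AHCY, those of SRM 0.280% and that of AMD1 0.0287%, and none carrying the name of another of the 10 genes was listed. Bulk RNA cannot tell fewer cells that express a gene from less RNA per cell.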

How the data were processed

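The authors sequenced RNA of siControl and siHOTAIRM1 cells of 3 cell lines, trimmed the reads in Partek Flow, aligned them to hg38 with STAR 2.4.1d and quantified them on Ensembl release 84 by Expectation-Maximization. Which strand was counted is not given in the sources used here. What the authors deposited are CPM values, each with 0.0001 added, and the listed genes of a library sum to 42.9 to 67.2% of the full scale. The CPM that 1 read is worth was read from the spacing of low values. Since 77.0 to 81.2% of values up to 1000 reads lay within 0.02 of a whole read, no count test was used. Intervals within a cell line (95%) and a floor of 3 reads (0.0289 to 0.0574 CPM) cover counting error only.

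The 14294 genes averaging 1 CPM or more were tested as log2(CPM + 1) with limma 3.58.1 in R 4.3.3, with a mean-variance trend, cell line and condition as terms, Benjamini-Hochberg adjustment over all of them and a two-sided threshold of 0.05. Fold changes on this scale understate those of low genes. The fit had 34.5 degrees of freedom, 2 of them residual and the others borrowed across genes. It was run on simulated data with noise of the spread that the fit itself gave, which cannot test that borrowing. Libraries of the same cell line, paired by their labels, correlated in their deviations from the condition means with r from 0.948 to 0.967. Lengths are those of canonical transcripts of GENCODE v44 on hg38. Positions of genes, and distances to their neighbours, are those of whole gene records, which can start or end outside the canonical transcript.

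The 10 genes, the lists and the tests were chosen with earlier results of these data known. Named genes were the 10 genes, those of the lists past the threshold, counterparts of the 10 genes, the 5 nearest to MAT2B in pattern (1 of these is not reported here) and its chromosomal neighbours. Alternatives were no block, a pseudocount of 0.1, no filter, median centring, rescaling of each library to the sum of its listed genes, medians of genes of similar transcript length, a paired t-statistic and leaving out each library or cell line. Python 3.11.15 with pandas 2.3.3, numpy 2.4.6 and matplotlib 3.10.9 was used.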

Additional observations from a re-analysis of the deposited data

Results flagged for a closer look

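Of the 10 genes, 5 moved in opposite directions in a pair of cell lines, as measured and relative to the median change of all genes of the line, with a 95% interval of the counting error that left out the control level in both lines. ODC1 and AZIN1 also had opposite signs, but their intervals in LN-229 (98.8 to 107% and 99.7 to 106% of control) included it. With 1 library per line and condition, none of these differences was tested. Relative to the median (log2), OAZ1 changed by 0.18 in LN-229 against -0.44 in U251 (difference 0.62). SAT1 changed by 0.47 in LN-229 and -0.04 in T98G (difference 0.51), SRM by 0.30 in LN-229 and -0.15 in T98G (0.45), AHCY by 0.10 in LN-229 against -0.18 in U251 (0.27) and AMD1 by 0.05 in LN-229 and -0.20 in T98G (0.25). The pair with the largest difference is given for each gene, and LN-229 was the line with the positive value in each of these pairs. SAT1 met the same rule for U251 (0.31) against T98G (-0.04), so for SAT1 the line apart was T98G. The value of SAT1 in T98G was -0.01 after rescaling and was 0.06 relative to genes of similar transcript length. That of AHCY in U251 was 0.06 after rescaling.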

How the results depend on the processing

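After knock-down, 286 genes passed the threshold of limma. A pseudocount of 0.1 gave 683, median centring 41 and rescaling 25. The count was 0 with no replicate block, no filter or a paired t-statistic, where 29, 2477 and 896 genes had an unadjusted p under 0.05. It ranged from 0 to 270 when a cell line was left out, with 0 without T98G (1206 at an unadjusted p under 0.05), 149 without U251 and 270 without LN-229. Of the wider pathway genes, 2 passed it, against 5 with a pseudocount of 0.1, 1 after rescaling, 0 with no replicate block, no filter or a paired t-statistic, and 0 to 2 when a cell line was left out. The share of higher genes was 20.6% after knock-down, 36.6% after centring and 40.0% after rescaling. For U251 minus T98G it was 64.0%, 50.5% and 40.8%, and for U251 minus LN-229 60.5%, 51.7% and 38.1%. Without filtering, it was 53.1% for U251 minus T98G. Genes past the threshold between T98G and LN-229 numbered 5107 to 8046 when a library was left out, with 5107 without the siHOTAIRM1 library of T98G, against 7851 with all.

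The mean changes of the 10 genes after knock-down moved by less than 1 SD between the lines under 88 combinations of gene and alternative and by more under 2. MAT2A moved to 0.14 and ODC1 to 0.06 after rescaling, which raised the median of U251 to 0.18. Of the cell line differences under each alternative, 265 kept their direction and side of the threshold, 21 lost the threshold, 8 gained it and 6 turned. With no filter, those of MAT2B, AMD1, SRM and SMS from LN-229 to T98G, and that of MAT2B from LN-229 to U251, lost it (limma adjusted p 0.0602 to 0.117). Rescaling turned U251 minus LN-229 to -0.22 for SMS and -0.16 for AZIN1. Without the siControl library of LN-229, OAZ1 was at -0.02 for T98G minus LN-229 (range over left-out libraries up to 0.64) and SMS at -0.02 for U251 minus LN-229 (up to 0.29). MAT2B was at 0.00 and 0.32 for U251 minus T98G without the siHOTAIRM1 library of T98G or of U251, and at -0.37 without the siControl library of U251. The causes were not tested. Each value of the 10 genes rests on at least 584 reads, and the spread between cultures of a line is unknown.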
